A study of Rattus norvegicus with 17 samples.

Results

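Collagens, laminins and integrins are the fibres, the basement membrane networks and the cell surface receptors through which cells meet the extracellular matrix. They were followed here in rat spinal neurons on an expression array. The members were all genes whose array symbol begins with Itga or Itgb, or is a collagen alpha chain or a laminin chain, except Itgam and Itgb2. That rule found 75 genes, represented by 110 of the 31099 probe sets on the array. There were 41 collagen genes, 10 laminin genes and 24 genes of the integrin group. The integrin group holds 4 genes that are not integrin chains, namely Itgb1bp1, Itgb1bp2, Itgb3bp and Itgbl1, whose products bind or resemble integrins. Itgam and Itgb2, chains of leukocytes, serve below as markers. Itgb8 was not analysed here.

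The samples came from 10 rats, and each sample pooled 1000 retrogradely labelled spinal cord neurons cut by laser from 10 µm sections of unfixed cord. In 7 rats 2 samples were taken after axotomy, 1 of neurons that regenerated an axon (Regenerating) and 1 of neurons that did not (Non-regenerating). The other 3 rats gave labelled neurons without axotomy (Traced). The labels used here do not give strain, age, the kind of axotomy or the time after it, and the title of Traced MM15 calls it a high-yield replicate. Regenerating and Non-regenerating neurons were compared within the 7 animals. Each was then compared with Traced neurons between animals, and these last 2 comparisons share the same 3 Traced arrays. Of the 7 axotomised rats 5 have names that begin with MM and 2 with MOON, and all 3 Traced rats are named MM.

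Integrins are pairs of an alpha and a beta chain that span the cell membrane, bind matrix proteins outside and link to the actin cytoskeleton through talin, kindlin and integrin-linked kinase inside. Laminins are trimers of an alpha, a beta and a gamma chain that, with type IV collagen, build basement membranes. Alpha chains such as the integrin alpha 6 and alpha 7 chains, paired with beta 1, read laminin, and growing axons use them on laminin. In the adult spinal cord the fibrillar collagens are made mainly by meningeal and perivascular cells. Neurons carry several integrins and a few membrane collagens.

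Of the 110 probe sets, 64 (for 52 genes) were bright enough to be tested, 58.2% against 59.9% of all probe sets. The cut was the 40th percentile of mean log2 signal, near a signal of 34.0 on arrays whose trimmed mean signal was 200.04 to 200.08. For 23 genes no probe set passed. They include Itga1, Itga5, Itga7, Itgb4 and Lama5, the last being a main laminin alpha chain of vessel walls. Itga7, an alpha chain tied to axon regrowth in peripheral nerve, was dim at all 3 of its probe sets, and at 1370937_a_at the signals lay from 13.1 to 105 (median 27.9) in Regenerating, from 9.9 to 42.0 (median 26.2) in Non-regenerating and from 8.2 to 31.7 (median 26.2) in Traced samples. A dim signal on this array limits what can be said of a gene and does not show that its transcript was absent. Signals of different probe sets are not set against each other here, since their scales differ.

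No member passed an adjusted p of 0.05 (limma, Benjamini-Hochberg over the 18625 tested probe sets) in any of the 3 comparisons. The smallest adjusted p of a member was 0.678 for Regenerating against Non-regenerating, 0.472 for Non-regenerating against Traced and 0.0684 for Regenerating against Traced. Over all probe sets, 0.0161%, 0.043% and 0.215% passed in these comparisons. At an unadjusted p under 0.05, Regenerating against Non-regenerating gave 1 member higher (Col18a1), 1.56% of the 64 beside 4.26% of all probe sets. It gave 3 members lower (Col16a1, Col25a1 and Itgav), 4.69% beside 2.81%. Non-regenerating against Traced gave 3 higher (Itgal, Itgav and Lama2), 4.69% beside 2.68%. It gave 3 lower (Col6a2, Itga6 and Lama1), 4.69% beside 7.61%. Regenerating against Traced gave 4 higher (Col5a2, Itgal, Itgb3bp and Lama2), 6.25% beside 5.98%. It gave 9 lower (Col15a1, Col23a1, Col5a1, Col6a2, Col8a2, Itga6, Lama1, Lamc1 and Lamc3), 14.1% beside 17.6%. These shares lie near those of the whole array at such small counts, so the counts are no result about the members. The genes are described below as measurements that did not pass the adjusted test. When limma weighted the arrays by how well each fitted, 6 members passed for Non-regenerating (Col23a1, Col26a1, Col6a2, Itga6, Itgal and Itgav) and 7 for Regenerating against Traced (the same without Itgav, with Col5a2 and Itgb3bp). Under those weights 553 probe sets higher and 1887 lower, and 860 higher and 2271 lower, of all 18625 passed as well.

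Groups that do not overlap gave a like picture. Col25a1 was the only member lower in Regenerating than in Non-regenerating neurons in 7 of 7 animals (1.56% beside 0.966% of all probe sets), and 0 members were higher in 7 of 7 (beside 1.12%). Every Non-regenerating sample lay above every Traced sample at 2 members, Itgal and Itgav (3.12% beside 1.1%), and below at 0 (beside 1.47%). Every Regenerating sample lay above every Traced sample at Col5a2 and Itgb3bp (3.12% beside 2.35%), and below at Col23a1, Col5a1, Col6a2 and Itga6 (6.25% beside 9.36%).

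The median log2 difference of the 64 members was -0.02 for Regenerating against Non-regenerating (0.00 for all probe sets), -0.08 for Non-regenerating against Traced (-0.12) and -0.10 for Regenerating against Traced (-0.12). By family the members spread around these medians. Of all 18625 probe sets 11396 were lower in Non-regenerating than in Traced samples as deposited. Of the 36 collagen probe sets 27 were lower in Non-regenerating than in Traced samples (median -0.16), against 6 of 9 for laminins (median -0.37, but -0.01 after centring) and 6 of 19 for integrins and their binding proteins (median 0.17). The collagen count turned over with each array centred on its own median, when 13 of 36 were lower, and was 19 of 36 after quantile normalization. For integrins the count lower was 4 of 19 under both of these scalings. Type VI collagens were grouped with the collagens left over from the other families (Col6a1, Col6a2, Col6a3, Col8a2 and Col26a1), which is not a structural class. All 5 probe sets of this group were lower in Non-regenerating than in Traced samples under all 3 scalings. Their medians were -0.57 as deposited, -0.29 after quantile normalization and -0.21 after centring. Of the 5, Col6a2 alone had an unadjusted p under 0.05 there. In Regenerating against Traced samples all 5 were lower as deposited (median -0.48) and after quantile normalization (-0.17), and 4 of 5 after centring (-0.09). In that comparison 23 of the 36 collagen probe sets were lower as deposited, 20 after quantile normalization and 14 after centring, against 7, 5 and 4 of 19 for integrins and their binding proteins. Of all 18625 probe sets 11034 were lower there as deposited. Families were not tested against each other or against all probe sets.

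**Figure D1:**
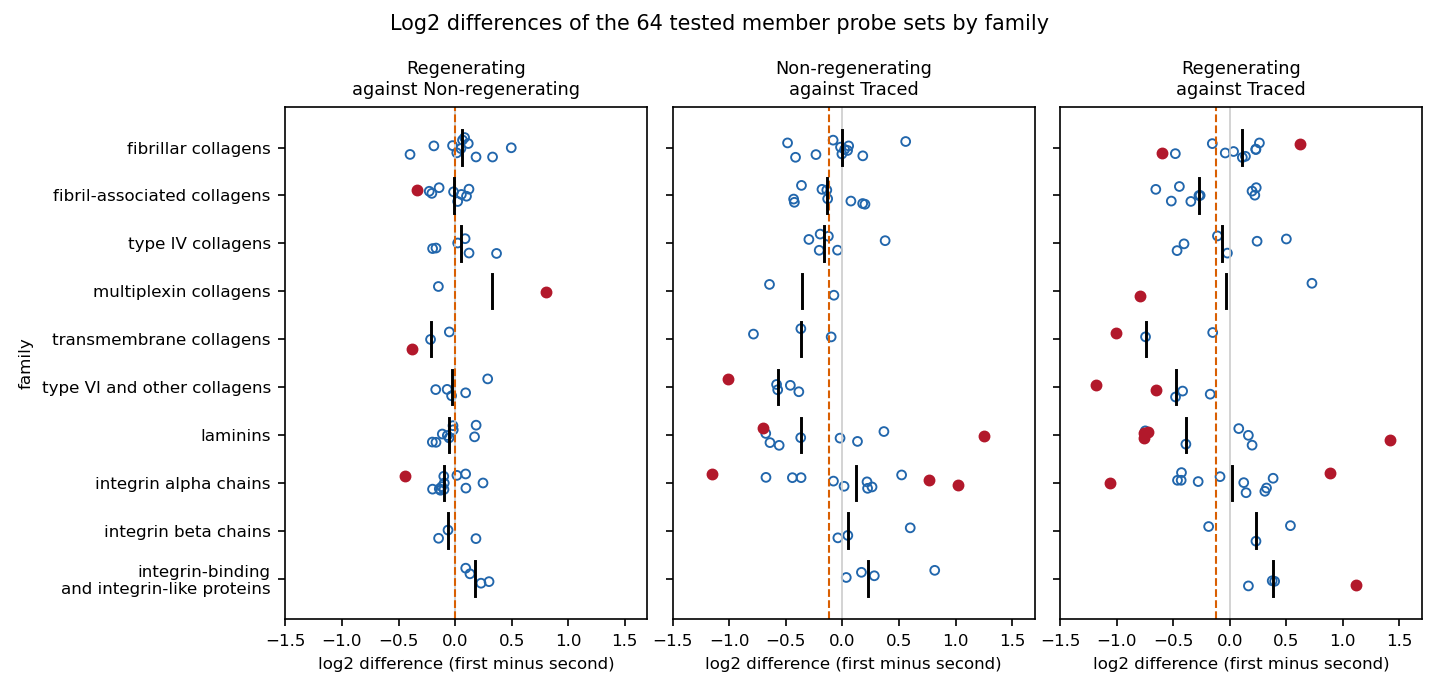
Log2 differences of the 64 tested member probe sets (horizontal axis, log2 units, first group minus second) by family (vertical axis) in the 3 comparisons. Filled red points have an unadjusted limma p under 0.05, open points do not, black bars are family medians and the orange dashed line is the median of all 18625 probe sets; the points spread wider against Traced (-1.18 to 1.42 for Regenerating) than within animals (-0.44 to 0.80).

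Among the integrin receptors, the leukocyte chain Itgal and the vitronectin receptor chain Itgav were higher in Non-regenerating than in Traced neurons without overlap, while the groups overlapped at the main partner chain, Itgb1. Itgb1 encodes the beta 1 chain that pairs with most matrix-binding alpha chains. Its signal lay from 1651 to 3266 (median 2094) in Regenerating samples and from 1774 to 4421 (median 2296) in Non-regenerating samples, and was 3797 in Traced MM15, 2029.5 in Traced MM18 and 2229.6 in Traced MM19. The Traced values lay inside the Non-regenerating range, where MM17 and MM15 were the highest samples of their groups. The differences (log2 ± SE) were -0.15 ± 0.14 within animals, -0.04 ± 0.30 for Non-regenerating and -0.19 ± 0.26 for Regenerating against Traced (adjusted p = 0.809, 0.965 and 0.709).

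Itgal encodes the alpha L chain, which with Itgb2 forms the leukocyte receptor LFA-1. Its signal lay from 297 to 756 (median 424) in Non-regenerating samples and from 233 to 925 (median 325) in Regenerating samples, and was 269 in Traced MM15, 163 in Traced MM18 and 202 in Traced MM19. All Non-regenerating samples lay above all Traced samples, and 2 Regenerating samples, MM13 and MM17, lay within the Traced range. The log2 difference was 1.02 ± 0.28 (SE) for Non-regenerating against Traced (unadjusted p = 0.00248, adjusted p = 0.472) and 0.89 ± 0.40 for Regenerating against Traced (unadjusted p = 0.0422, adjusted p = 0.193). The second value had an unadjusted p of 0.05 or more when 1 of 5 of the 10 arrays was left out, and was 0.73 (unadjusted p = 0.147) without Traced MM18. The first kept an unadjusted p under 0.05 under 20 of 20 other settings, with values of 0.82 to 1.38. Within animals Itgal differed by -0.13 ± 0.16, higher in 2 of 7.

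Markers of microglia and macrophages were also higher against Traced samples. Of 18 listed markers all were measured and 14 tested. Of these 13 were higher in Non-regenerating than in Traced samples, 10 at an unadjusted p under 0.05 and 2 at an adjusted p under 0.05 (limma). For Regenerating against Traced samples the counts were 13, 11 and 4, and within animals 9, 5 and 0. The summed signal of all 18 markers was 4152 to 4935 in Traced, 7822 to 11869 in Non-regenerating and 7926 to 13163 in Regenerating samples. Itgam, a defining marker, had mean signals of 2.66, 3.93 and 4.27 in Regenerating, Non-regenerating and Traced samples, under the offset of 16. Itgb2, the partner of Itgal, had means of 239, 203 and 123. Cx3cr1, Tyrobp and Fcgr3a of the same list had lower means in both axotomised groups than in Traced samples. In the same order of groups, Cx3cr1 had 26.6, 32.0 and 61.2, and Tyrobp had 31.5, 35.2 and 61.9. Fcgr3a had 63.5, 71.7 and 84.0. The part of microglia and macrophages in the Itgal result was not tested. In samples of pooled cells, more cells of a type and more RNA per cell cannot be told apart.

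Itgav encodes the alpha V chain, which binds vitronectin and other ligands with an RGD motif together with beta 1, beta 3, beta 5 and other beta chains. At probe set 1383880_at its signal lay from 272 to 419 (median 287) in Non-regenerating samples, was 149 in Traced MM15, 239.5 in Traced MM18 and 164 in Traced MM19, and lay from 85.5 to 448 (median 259.8) in Regenerating samples. Non-regenerating samples all lay above Traced samples, and the Regenerating samples spanned both. The log2 difference was 0.77 ± 0.24 (SE) for Non-regenerating against Traced (unadjusted p = 0.0057, adjusted p = 0.472), with an unadjusted p under 0.05 under 20 of 20 other settings. Within animals Regenerating minus Non-regenerating was -0.44 ± 0.19 (unadjusted p = 0.0343, adjusted p = 0.681), lower in 5 of 7 animals. The difference was largest in MM11 (131 against 279) and MM14 (85.5 against 272). Without MM11 it was -0.35 (unadjusted p = 0.107) and without MM14 -0.26 (unadjusted p = 0.148), and without MOON265 -0.42 (unadjusted p = 0.066). A second probe set for Itgav, 1393226_at, differed by 0.22 ± 0.26 between Non-regenerating and Traced samples and by 0.09 ± 0.15 within animals. Its direction within animals was opposite, and its groups overlapped.

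Itga6 encodes the alpha 6 chain, a laminin receptor with beta 1 or beta 4. Its 3 tested probe sets did not all point the same way. At 1371186_at the signal lay from 21.7 to 65.6 (median 44.2) in Regenerating and from 19.4 to 83.3 (median 35.0) in Non-regenerating samples, and was 160.1 in Traced MM15, 82.2 in Traced MM18 and 103 in Traced MM19. Every Regenerating sample lay below every Traced sample, and 1 Non-regenerating sample, MM16 at 83.3, lay above the lowest Traced value. The log2 difference was -1.16 ± 0.36 (SE) for Non-regenerating (unadjusted p = 0.00659, adjusted p = 0.472) and -1.06 ± 0.29 for Regenerating against Traced (unadjusted p = 0.00229, adjusted p = 0.0694). At 1371185_at the differences were -0.37 ± 0.33 and -0.46 ± 0.24. At 1383240_at, the signal lay from 699.9 to 1546 (median 1039) in Regenerating and from 962 to 1564 (median 1127) in Non-regenerating samples, and was 1107 in Traced MM15, 874 in Traced MM18 and 904 in Traced MM19. There the differences were 0.26 ± 0.21 and 0.14 ± 0.26, in the opposite direction. The lower signal against Traced was thus seen at 2 of the 3 probe sets and not at the third. Which transcripts each probe set reads was not analysed here.

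No other integrin chain had an unadjusted p under 0.05 in any comparison. Itga3, another laminin-binding chain, lay from 40.9 to 312 (median 125) in Regenerating, from 70.1 to 282 (median 143) in Non-regenerating and from 109 to 225 (median 123) in Traced samples, and its 3 groups overlapped. Itgb5, a partner of alpha V, lay from 114 to 194 (median 139), from 78.6 to 196 (median 128) and from 107 to 149 (median 117) in the same order, with a within-animal difference of 0.18 ± 0.15 (adjusted p = 0.784). Of the 12 alpha chain probe sets 7 were higher and 5 lower in Non-regenerating than in Traced samples (9 and 3 after quantile normalization, 8 and 4 after centring), and, under all 3 scalings, 4 were higher and 8 lower in Regenerating than in Non-regenerating samples. Over all probe sets, as deposited, 7229 were higher and 11396 lower in the first comparison, and 9276 higher and 9349 lower in the second.

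The 4 tested probe sets of integrin-binding proteins were higher in Regenerating than in Non-regenerating samples, and higher in both than in Traced samples, under all 3 scalings, and 1 of them reached an unadjusted p under 0.05, in Regenerating against Traced samples. Itgb3bp encodes a nuclear protein of the centromere that also binds the tail of the beta 3 chain. At 1390604_s_at its signal lay from 142 to 339 (median 165) in Regenerating and from 58.0 to 262 (median 176) in Non-regenerating samples, and was 41.8 in Traced MM15, 119 in Traced MM18 and 105 in Traced MM19. All Regenerating samples lay above all Traced samples, while Non-regenerating MM17 (58.0) and MM16 (116) lay within the Traced range. The log2 difference of Regenerating against Traced was 1.12 ± 0.34 (unadjusted p = 0.00499, adjusted p = 0.08), and 0.73 without Traced MM15 (unadjusted p = 0.0501). At its other probe set, 1377182_at, the same difference was 0.17 ± 0.29. Itgb1bp1, a regulator that binds the tail of beta 1, differed by 0.23 ± 0.14 within animals at 1398395_at, higher in 6 of 7 (adjusted p = 0.725).

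**Figure D2:**
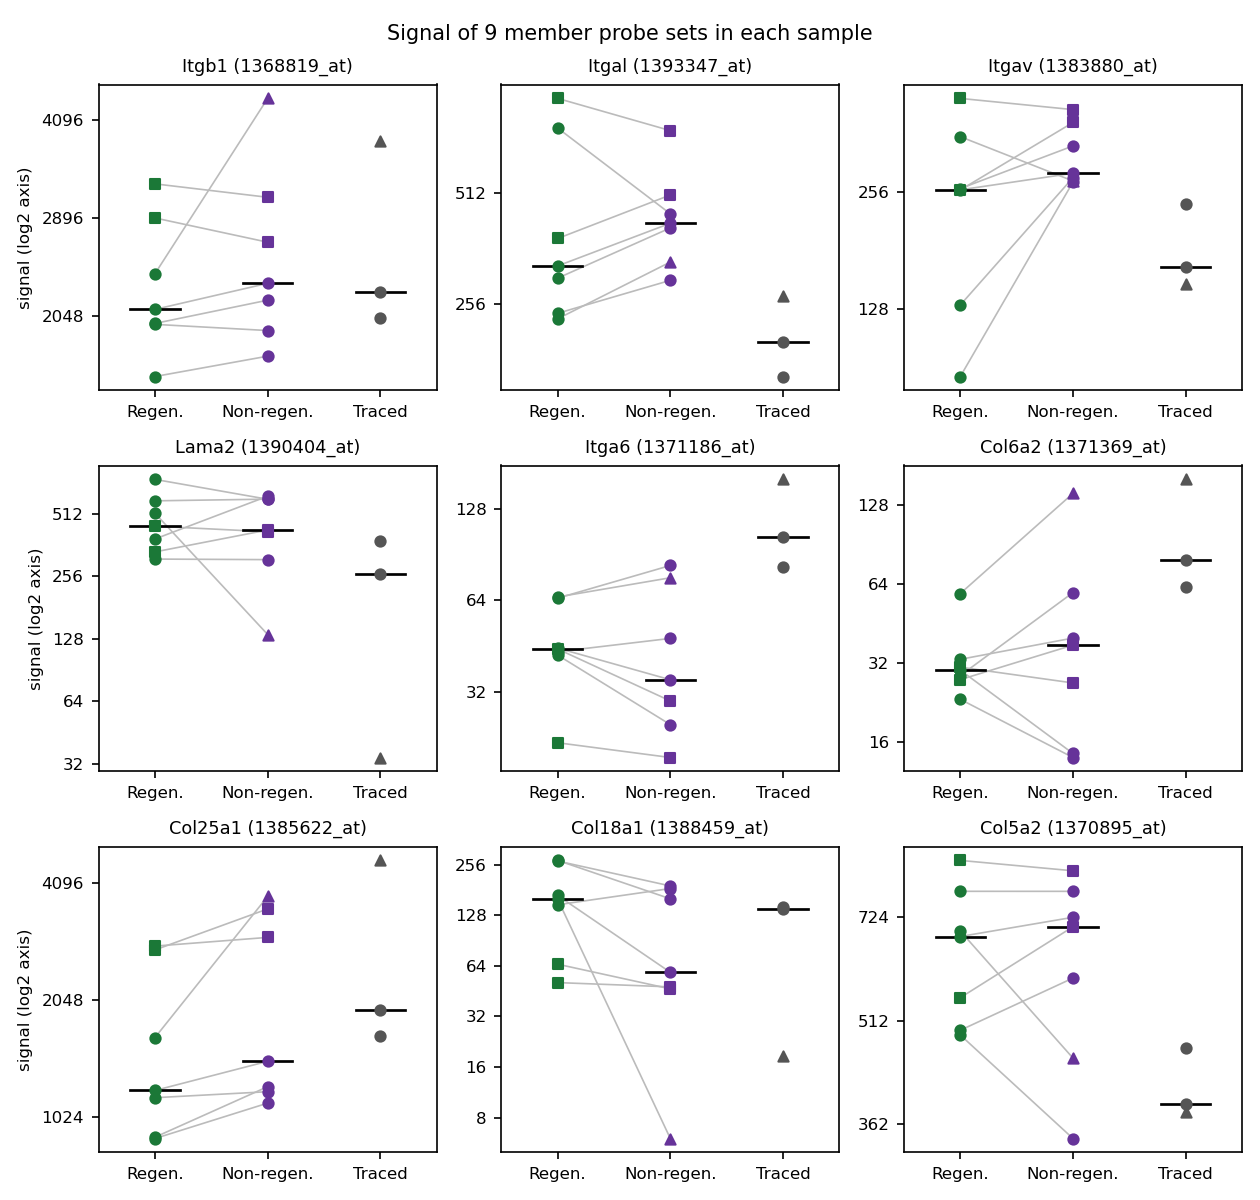
Deposited signal (vertical axis, log2-spaced) of 9 member probe sets in each of the 17 samples, with grey lines joining the 2 samples of an animal and bars at group medians. Squares are animals named MOON, triangles are Non-regenerating MM17 and Traced MM15, circles all others; all Non-regenerating samples of Itgal (297 and above) lie above the Traced samples (269 and below), whereas the Traced samples of Lama2 are set apart by MM15 at 34.3.

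Among the laminins, the alpha chains Lama1 and Lama2 differed from Traced neurons in opposite directions, and both were smaller without the Traced MM15 array. Lama2 encodes the alpha 2 chain of the laminin around muscle fibres and Schwann cells. Its signal lay from 311 to 752 (median 447) in Regenerating and from 134 to 624 (median 429) in Non-regenerating samples, and was 34.3 in Traced MM15, 380.2 in Traced MM18 and 262 in Traced MM19. MM15 lay far below the other 2 Traced samples, and Non-regenerating MM17 (134) far below the other Non-regenerating ones. The log2 difference was 1.25 ± 0.56 (SE) for Non-regenerating (unadjusted p = 0.043, adjusted p = 0.472) and 1.42 ± 0.49 for Regenerating against Traced (unadjusted p = 0.0118, adjusted p = 0.108). Without Traced MM15 the values were 0.34 (unadjusted p = 0.469) and 0.51 (unadjusted p = 0.137).

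Lama1 encodes the alpha 1 chain of early basement membranes. Its deposited signal lay from 29.2 to 74.1 (median 60.5) in Regenerating and from 30.7 to 83.6 (median 50.1) in Non-regenerating samples, and was 147 in Traced MM15, 89.1 in Traced MM18 and 68.4 in Traced MM19. The lowest Traced sample lay inside the range of the other groups. The difference was -0.70 ± 0.31 for Non-regenerating (unadjusted p = 0.0376, adjusted p = 0.472) and -0.72 ± 0.29 for Regenerating against Traced (unadjusted p = 0.0281, adjusted p = 0.157), and -0.44 (unadjusted p = 0.221) and -0.46 (unadjusted p = 0.17) without Traced MM15. The Non-regenerating value had an unadjusted p of 0.05 or more without any 1 of 7 of the 10 arrays, as did that of Lama2 without any 1 of 6.

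The 3 tested probe sets of gamma chains were lower against Traced samples as deposited, but with each array centred on its median the 1371322_at values for Lamc1 were -0.01 for Non-regenerating and 0.00 for Regenerating samples. Lamc1, the gamma 1 chain shared by most laminins, differed by -0.37 ± 0.24 and -0.39 ± 0.24 at 1371322_at, for Non-regenerating and Regenerating against Traced, with adjusted p = 0.534 and 0.348. At 1370993_at the Regenerating difference was -0.75 ± 0.30 (unadjusted p = 0.0265, adjusted p = 0.153), and -0.44 without Traced MM15 (unadjusted p = 0.184). Lamc3, the gamma 3 chain, differed by -0.76 ± 0.35 (unadjusted p = 0.0461, adjusted p = 0.203), and by -0.60 without Traced MM15 (unadjusted p = 0.168), with an unadjusted p of 0.05 or more without any 1 of 6 of the 10 arrays. Its signal lay from 107 to 347 (median 177) in Regenerating samples and was 431 in Traced MM15, 384 in Traced MM18 and 236 in Traced MM19.

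The beta chains and Lama4 had no unadjusted p under 0.05 in the main fit of any comparison. Lamb2, the beta 2 chain found at synapses and vessels, lay from 532 to 1216 (median 762) in Regenerating, from 495 to 985 (median 671) in Non-regenerating and from 589 to 781 (median 740.0) in Traced samples. Regenerating samples were higher by 0.19 ± 0.13 within animals, in 5 of 7 (adjusted p = 0.754). Lamb1, the beta 1 chain, differed by -0.05 ± 0.26 within animals over a signal range of 6.6 to 74.4. Its difference was 0.37 in the 5 animals named MM and -1.11 in the 2 named MOON, with an unadjusted p of 0.005 and an adjusted p of 0.912 for the difference between the 2 sets of animals (limma). Its signals in Regenerating MOON266 (6.6, against 59.9 in Non-regenerating) and Non-regenerating MM14 (6.8, against 37.3 in Regenerating) were under the offset of 16. Of the 64 members 2 (3.12%) had an unadjusted p under 0.05 for this contrast, beside 5.11% of all probe sets. The other was Itgb1bp1 at 1378448_at (unadjusted p = 0.0229, adjusted p = 0.912), where all MOON signals were under the offset (2.4 to 14.5). Lama4, the alpha 4 chain of vessel walls, differed by -0.17 ± 0.22 within animals (adjusted p = 0.869), lower in 6 of 7. It was higher in MM17, where the Non-regenerating signal was 3.8, under the offset, against 33.1 in the Regenerating sample. Over the other settings the Lama4 difference ran from -0.43 to -0.06, with an unadjusted p under 0.05 (limma) in 2 of 17.

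Among the collagens, the within-animal comparison had its smallest unadjusted p at a basement membrane and a membrane-spanning collagen, Col18a1 (higher in Regenerating neurons) and Col25a1 (lower). Col25a1 encodes a membrane-spanning collagen of neurons, whose shed ectodomain is found in amyloid plaques and which developing motor neurons need to innervate muscle. Its signal in Regenerating and Non-regenerating samples was 909.5 and 1226 in MM11, 1149 and 1190.2 in MM13, 902 and 1113 in MM14, and 1199 and 1425 in MM16. It was 1639.9 and 3779 in MM17, 2817 and 2965 in MOON265, and 2754 and 3509.9 in MOON266. The Regenerating sample was the lower one in all 7 animals, and the gap was widest in MM17. The difference was -0.38 ± 0.14 (unadjusted p = 0.0173, adjusted p = 0.678), and -0.24 without MM17 (unadjusted p = 0.0425). The Traced signals were 4676 in Traced MM15, 1935 in Traced MM18 and 1651 in Traced MM19, inside the range of the axotomised samples except for MM15, and the differences against Traced were -0.37 ± 0.45 for Non-regenerating and -0.74 ± 0.41 for Regenerating samples (adjusted p = 0.754 and 0.288).

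Col18a1 encodes the basement membrane collagen that carries endostatin at its end. Its Regenerating and Non-regenerating signals were 269.5 and 192 in MM11, 272 and 161 in MM13, 168 and 58.6 in MM14, and 148 and 185 in MM16. They were 159.7 and 6.0 in MM17, 50.9 and 48.0 in MOON265, and 65.5 and 46.7 in MOON266. The Regenerating sample was higher in 6 of 7 animals, by far the most in MM17, where the Non-regenerating sample was below the offset. The difference was 0.80 ± 0.29 (unadjusted p = 0.0139, adjusted p = 0.678), 0.44 without MM17 (unadjusted p = 0.0372), 1.03 in the 5 animals named MM and 0.22 in the 2 named MOON. Traced signals were 18.5 in Traced MM15, 139 in Traced MM18 and 144 in Traced MM19, with MM15 alone near the offset.

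Col16a1, a fibril-associated collagen, was lower in Regenerating samples in 6 of 7 animals, with a difference of -0.34 ± 0.15 (unadjusted p = 0.0372, adjusted p = 0.686). The signal of Col16a1 lay from 81.8 to 243 (median 157) in Regenerating and from 158 to 251 (median 171) in Non-regenerating samples, and was 262 in Traced MM15, 208 in Traced MM18 and 203 in Traced MM19. The ranges overlapped, and leaving out MM13 (-0.29, unadjusted p = 0.102) or MOON265 (-0.25, unadjusted p = 0.121) gave an unadjusted p of 0.05 or more, as did leaving out MM14 or MM16. No other fibril-associated collagen had an unadjusted p under 0.05 in any comparison.

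The fibrillar collagens, the rope-forming chains of connective tissue, showed no difference past the adjusted test, and the 2 largest against Traced samples were at Col5a2 and Col5a1, both chains of type V collagen, in opposite directions. Type V collagen sets the width of fibrils. Col5a2 at 1370895_at lay from 488 to 876 (median 679) in Regenerating and from 345 to 846 (median 701) in Non-regenerating samples, and was 377 in Traced MM15, 388 in Traced MM18 and 467 in Traced MM19. All Regenerating samples lay above the Traced samples, while 2 Non-regenerating samples, MM14 and MM17, lay within or below the Traced range. Regenerating samples were higher than Traced by 0.62 ± 0.23 (unadjusted p = 0.0174, adjusted p = 0.126), but at the other probe set, 1373463_at, by 0.11 ± 0.34 (adjusted p = 0.878). Col5a1 lay from 61.9 to 104 (median 86.4) in Regenerating samples and was 195 in Traced MM15, 108 in Traced MM18 and 125 in Traced MM19, with no overlap. The difference was -0.60 ± 0.25 (unadjusted p = 0.0293, adjusted p = 0.161), and -0.38 without Traced MM15 (unadjusted p = 0.168).

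Type I and III collagens are the bulk of meningeal and vascular connective tissue. Col1a1 lay from 359 to 1476 (median 531) in Regenerating, from 313 to 709 (median 507) in Non-regenerating and from 579 to 836 (median 593) in Traced samples. Regenerating samples were higher within animals by 0.33 ± 0.16 in 6 of 7 (unadjusted p = 0.055, adjusted p = 0.697). Col1a2 was higher by 0.50 ± 0.24 in 6 of 7 at 1370155_at (unadjusted p = 0.0512, adjusted p = 0.697) and differed by 0.05 ± 0.16 at 1387854_at, where it was higher in 3 of 7. At 1387854_at its signal was 867 to 1746 in the animals named MOON and 245 to 700.4 in those named MM, over both axotomised groups, with no overlap. Col3a1 lay from 196 to 435 (median 292), from 186 to 404 (median 242) and from 209.6 to 274 (median 269) in Regenerating, Non-regenerating and Traced samples and differed by 0.19 ± 0.16 within animals (adjusted p = 0.796). Of 13 tested markers of fibroblasts and meninges 12 were also higher in Regenerating than in Non-regenerating samples, with a median of 0.19 and 2 at an unadjusted p under 0.05, and 0 passed the adjusted test (limma). The summed signal of all 15 measured markers of this list was 3765 to 6292 in Regenerating, 3626 to 5601 in Non-regenerating and 4747 to 5346 in Traced samples. The part of fibroblasts and meninges in the type I collagen values was not tested.

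None of the type IV collagens of basement membranes had an unadjusted p under 0.05 in any comparison. Col4a1 at 1373245_at lay from 115 to 231 (median 169) in Regenerating, from 109.9 to 256 (median 155) in Non-regenerating and from 142 to 230.1 (median 175) in Traced samples. Col4a2 lay from 22.1 to 118 (median 95.5), from 54.5 to 184 (median 106) and from 101 to 153 (median 109). Within animals they differed by 0.09 ± 0.16 and -0.17 ± 0.21 (adjusted p = 0.909 and 0.856). Of the 6 type IV probe sets 5 were lower in Non-regenerating than in Traced samples as deposited (beside 11396 of all 18625 probe sets), 2 after quantile normalization and 0 after centring. Of the markers of endothelial cells, which lay down much of this collagen, 14 were tested. Of these 5 were higher in Non-regenerating than in Traced samples, and 2 were lower at an unadjusted p under 0.05 (limma). The summed signal of all 15 measured endothelial markers overlapped between all groups. It was 5662 to 11882 in Regenerating, 6602 to 10931 in Non-regenerating and 7680 to 8388 in Traced samples.

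Type VI collagen forms beaded filaments around cells and is a trimer of 3 different chains. Col6a2 lay from 23.2 to 58.9 (median 30.0) in Regenerating and from 13.9 to 142 (median 37.4) in Non-regenerating samples, and was 161 in Traced MM15, 62.2 in Traced MM18 and 78.8 in Traced MM19. Every Regenerating sample lay below every Traced sample, and Non-regenerating MM17 (142) lay among the Traced ones. The difference was -1.18 ± 0.29 for Regenerating (unadjusted p = 0.00104, adjusted p = 0.0684) and -1.01 ± 0.47 for Non-regenerating against Traced (unadjusted p = 0.0482, adjusted p = 0.472), the second -0.67 without Traced MM15 (unadjusted p = 0.232) and with an unadjusted p of 0.05 or more without any 1 of 7 of the 10 arrays. Col6a1 differed by -0.17 ± 0.31 and -0.46 ± 0.26, and Col6a3 by -0.42 ± 0.29 and -0.39 ± 0.27, in the same order. Col6a1 was higher within animals by 0.29 ± 0.15 in 6 of 7 (adjusted p = 0.702).

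Of the remaining collagens, Col23a1 stood apart most from Traced samples. Col23a1 encodes a membrane-spanning collagen that, like Col25a1, is shed from the cell. The signal of Col23a1 lay from 18.2 to 56.9 (median 35.1) in Regenerating and from 16.8 to 111 (median 38.4) in Non-regenerating samples, and was 77.2 in Traced MM15, 83.9 in Traced MM18 and 91.7 in Traced MM19. All Regenerating samples lay below the Traced samples, while Non-regenerating MM17 (111) lay above them. The difference was -1.0 ± 0.26 for Regenerating against Traced (unadjusted p = 0.00178, adjusted p = 0.0684) and -0.79 ± 0.38 for Non-regenerating against Traced (unadjusted p = 0.0572, adjusted p = 0.472). The first kept an unadjusted p under 0.05 under 19 of 19 other settings, as did Col6a2 and the Itga6 probe set 1371186_at in that comparison. These settings reuse much of the same data. Among them 10 left out a single array, and the fit without Traced MM15 is counted again as the fit without arrays that stood apart. Col15a1, a basement membrane relative of Col18a1, differed by -0.79 ± 0.31 (unadjusted p = 0.0231, adjusted p = 0.144), and Col8a2, a chain of the sheet under the corneal endothelium, by -0.65 ± 0.27 (unadjusted p = 0.0275, adjusted p = 0.156). Without Traced MM15 these were -0.68 (unadjusted p = 0.0855) and -0.40 (unadjusted p = 0.171).

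Of the 52 tested genes 11 had more than 1 tested probe set. Against Traced samples, probe sets of Itga6 pointed in opposite directions by more than 0.5, as did those of Col14a1, a fibril-associated collagen (-0.43 ± 0.37 at 1376105_at and 0.20 ± 0.38 at 1376170_at for Non-regenerating samples). Those of Itga8, an alpha chain that binds nephronectin and fibronectin, were 0.52 ± 0.58 and -0.08 ± 0.35. Those of Itgb1bp1 (0.17 ± 0.37 and 0.28 ± 0.48) and Lamc1 went the same way. None of these disagreeing pairs passed the adjusted test at either probe set (limma).

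**Figure D3:**
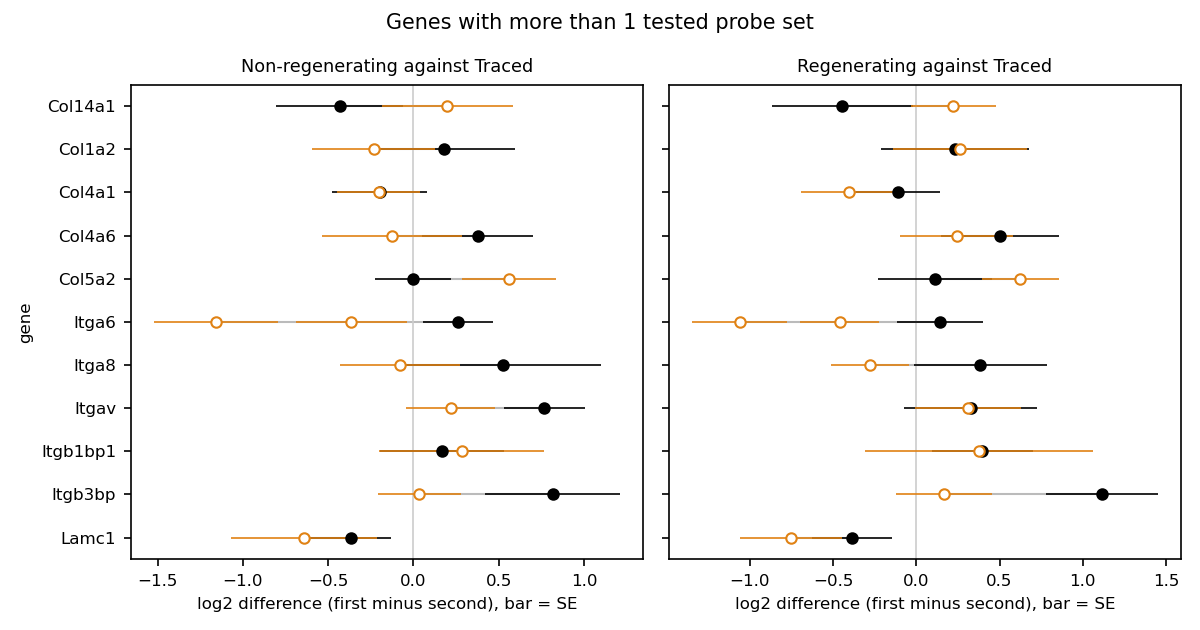
Log2 differences (horizontal axis, points with SE bars) of the 11 genes with more than 1 tested probe set (vertical axis), for Non-regenerating (left) and Regenerating samples (right) against Traced. Black points are the probe set with the higher mean signal, open orange points the others; the 3 Itga6 points run from -1.16 to 0.26 in the left panel, and the points of the other 10 genes lie between -0.64 and 0.82 there.

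Chains that are built into 1 trimer or 1 receptor were set beside each other within animals, at the probe set with the higher mean signal, as a description without a test. The Regenerating minus Non-regenerating difference had the same sign for Col4a5 and Col4a6, neighbouring chains of type IV collagen, in 7 of 7 animals. It had the same sign for Col4a1 and Col4a2 in 5 of 7, for Lamb2 and Lamc1 in 5, for Col1a1 and Col1a2 in 4, for Col6a1 with Col6a2 and with Col6a3 in 4 each, for Itga6 and Itgb1 in 3, for Itgav and Itgb5 in 3 and for Col5a1 and Col5a2 in 1. The choice of probe set moved these counts. Col1a1 went with the other probe set of Col1a2 in 7 of 7 animals, Itgb5 with the other probe set of Itgav in 7 of 7, and Col4a5 with the other probe set of Col4a6 in 6 of 7. Col4a2 went with the other probe set of Col4a1 in 4 of 7, as did Lamb2 with that of Lamc1. Col5a1 went with the other probe set of Col5a2 in 2 of 7. For Itga6 with Itgb1 the counts were 5 at 1371185_at and 4 at 1371186_at. The points of a pair share the same arrays, and a shift of a whole array moves both.

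**Figure D4:**
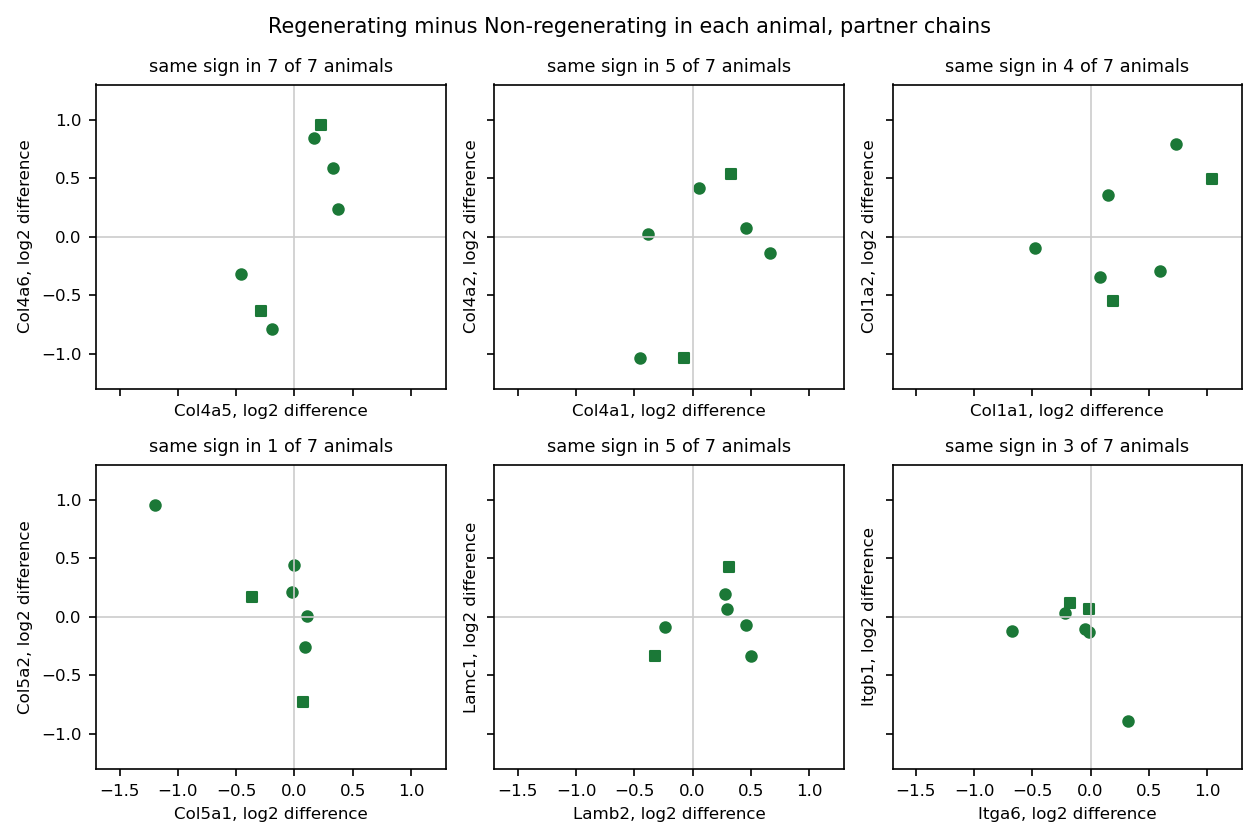
Regenerating minus Non-regenerating log2 difference in each of the 7 animals for 6 pairs of partner chains (both axes in log2 units; circles are animals named MM, squares MOON). The points of Col4a5 and Col4a6 all lie in the 2 quadrants of equal sign, and those of Col5a1 and Col5a2 do so in 1 of 7 animals.

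The genes of 2 of these pairs, Col4a1 with Col4a2 and Col4a5 with Col4a6, are head to head neighbours. The gap of the first pair is printed and that of the second is not. Start regions of Itgav, Lama2 and Col18a1, whose differences were described above, are printed as well. The sequences are from RefSeq on the rat build GRCr8, 5′ to 3′ on the plus strand, and 59 of the 75 genes have one. Capitals mark the GC box GGGCGG (or CCGCCC on the other strand), which binds Sp1-type factors, and the box CCAAT (or ATTGG). For Itgav (chr3:89245132-89245381), Lama2 (chr1:19491896-19492145) and Col18a1 (chr20:11473395-11473644) the 250 bases before the start are shown. Between the starts of Col4a2 and Col4a1 (chr16:84885521-84885596), which are read in opposite directions, the whole gap of 76 bases is shown. The starts of Col4a5 and Col4a6 are 1414 bases apart.
Itgav: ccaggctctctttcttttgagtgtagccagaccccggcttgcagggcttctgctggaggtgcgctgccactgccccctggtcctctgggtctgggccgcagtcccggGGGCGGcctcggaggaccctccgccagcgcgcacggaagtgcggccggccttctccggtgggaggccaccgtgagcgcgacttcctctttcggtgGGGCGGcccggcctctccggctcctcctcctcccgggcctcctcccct
Lama2: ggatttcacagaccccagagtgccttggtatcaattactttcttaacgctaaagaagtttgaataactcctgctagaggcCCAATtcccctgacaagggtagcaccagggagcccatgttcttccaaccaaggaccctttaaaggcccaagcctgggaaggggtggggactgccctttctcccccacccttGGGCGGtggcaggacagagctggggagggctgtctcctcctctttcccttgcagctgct
Col18a1: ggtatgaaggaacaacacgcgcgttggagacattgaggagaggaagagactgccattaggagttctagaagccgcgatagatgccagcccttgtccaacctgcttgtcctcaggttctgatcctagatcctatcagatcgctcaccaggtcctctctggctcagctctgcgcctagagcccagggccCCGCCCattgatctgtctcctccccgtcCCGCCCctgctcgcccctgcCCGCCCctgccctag
Col4a2-Col4a1: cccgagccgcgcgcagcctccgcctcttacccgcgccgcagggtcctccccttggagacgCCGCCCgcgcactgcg

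Itgav has 2 GC boxes in its window, Lama2 1 GC box and 1 CCAAT box, Col18a1 3 GC boxes, and the Col4a2-Col4a1 gap 1 GC box. Of the 59 members with a sequence, 30 (50.8%) had GGGCGG on either strand in the 250 bases before the start, against 30.5% of all 33469 promoters. CCAAT was in 15 (25.4% against 34.0%) and TATAAA in 6 (10.2% against 12.9%), both on either strand. These are matches of letters, and they were not tied to the differences between groups.

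Brightness moved with the differences against Traced samples. The median signal of all probe sets was 63.7 to 76.0 on Traced arrays, 33.9 to 76.9 on Non-regenerating and 32.8 to 60.6 on Regenerating arrays. The 29 members above the 70th percentile of mean signal (near 134) had a median difference of 0.11 for Regenerating against Traced, and the 35 dimmer ones -0.34. Over all probe sets the same split gave 0.05 and -0.34. For Non-regenerating against Traced it gave 0.00 and -0.14 among members and 0.04 and -0.33 over all. Of the 9 members with an unadjusted p under 0.05 and a lower signal in Regenerating than in Traced samples, 7 were in the dimmer set, and all 4 with a higher signal were in the brighter set. The part of this array-wide pattern in single members was not tested.

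Non-regenerating MM17 and Traced MM15 stood apart from the other arrays of their groups. MM17 was the highest or lowest Non-regenerating sample at 38 of the 64 members (59.4%, against 56.8% of all tested probe sets), and MM15 the highest or lowest Traced sample at 60 (93.8% against 87.0%). Both were highest at 17 members, among them Itgb1, Lama1, Lamc1, Col25a1 and Col6a2, and both lowest at 11, among them Lama2, Lama4, Itga8, Itgb3bp, Col18a1 and Col4a5. The shares for all probe sets were 26.0% and 19.2%, beside 26.6% and 17.2% for members. Animals named MOON lay above all those named MM at 1 member (Col1a2, 1.56% against 5.34%) and below at 9 (14.1% against 14.6%), among them Itgb1bp1, Lama1 and Col15a1. What the 2 names stand for is not given in the labels used here. No Traced animal was named MOON, so the name is partly confounded with axotomy in both comparisons with Traced. Median signals were 32.8 to 39.0 on the MOON arrays and 45.2 to 76.9 on the axotomised MM arrays. The part of the name in the differences against Traced was not tested.

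Of the genes around the receptors, in 5 lists, 0 had an adjusted p under 0.05 in any comparison (limma). At an unadjusted p under 0.05, 4.26% of all probe sets were higher and 2.81% lower within animals. The shares were 2.68% and 7.61% in Non-regenerating, and 5.98% and 17.6% in Regenerating against Traced samples. Counts of the lists at that level follow, higher first, and no list was tested against these shares. The 27 tested genes of adhesion sites and integrin signalling had 1 and 0 within animals, 2 and 0 in Non-regenerating and 2 and 1 in Regenerating against Traced samples. In Regenerating against Traced samples Ilk, the kinase that ties beta chains to actin, differed by 1.13 ± 0.30 (adjusted p = 0.0684). In that comparison the docking protein Bcar1 differed by 1.01 ± 0.33 (0.0942) and the Ilk partner complex protein Rsu1 by -0.85 ± 0.37 (0.178). The 20 other matrix ligands had 5 and 0 within animals, 1 and 3 in Non-regenerating and 2 and 2 in Regenerating against Traced samples. The 5 include Matn2, an adaptor of matrix fibres (0.43 ± 0.17), Fbln1 (0.39 ± 0.17) and Agrn, the organiser of the neuromuscular synapse (0.31 ± 0.13), with adjusted p = 0.678, 0.681 and 0.681. Eln, elastin, differed by -1.49 ± 0.37 between Regenerating and Traced samples (adjusted p = 0.0684).

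The 15 tested genes of collagen synthesis had 0 and 1 within animals, 1 and 1 in Non-regenerating and 2 and 2 in Regenerating against Traced samples. Among the last were the lysyl hydroxylase Plod3 (-1.03 ± 0.25, adjusted p = 0.0684) and the prolyl hydroxylase chain P4ha2 (0.57 ± 0.21, adjusted p = 0.128). Plod3 was also the 1 gene of the 15 with an unadjusted p under 0.05 within animals (-0.40 ± 0.17, adjusted p = 0.678). The 17 proteases and inhibitors had 2 and 0, 1 and 1, and 2 and 2 in the same order. Timp2, an inhibitor of matrix metalloproteases, was higher in Regenerating than in Non-regenerating samples by 0.43 ± 0.15 and than in Traced samples by 1.34 ± 0.43 (adjusted p = 0.678 and 0.0888). The 18 other matrix receptors had 2 and 0, 2 and 1, and 2 and 2. Cd151, a tetraspanin that binds the laminin-binding integrins, was higher by 0.37 ± 0.12 and Rpsa, a ribosomal protein also described as a laminin receptor, by 0.79 ± 0.28 within animals (adjusted p = 0.678 and 0.678). The collagen receptor Ddr1 differed by -0.76 ± 0.25 between Regenerating and Traced samples (adjusted p = 0.0942).

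Markers checked the label of the samples. All 14 neuronal markers were measured and tested, with a summed signal of 22630 to 39908 in Regenerating, 20287 to 62731 in Non-regenerating and 26622 to 61450 in Traced samples, and 0 of 14 had an adjusted p under 0.05 in any comparison (limma), with 0, 1 and 1 at an unadjusted p under 0.05. Markers of other cells were also present in all groups. Of 11 tested astrocyte markers 10 were higher in Non-regenerating than in Traced samples (5 at an unadjusted p under 0.05), and 9 were higher in Regenerating than in Traced samples, where Gfap passed the adjusted test (1.33 ± 0.22, adjusted p = 0.026). Of the 10 oligodendrocyte and 5 Schwann cell markers tested, 0 passed limma's adjusted test. At an unadjusted p under 0.05, 1 oligodendrocyte marker was higher and 2 Schwann cell markers higher and 1 lower in Regenerating than in Traced samples. At that level 1 Schwann cell marker was also higher in Regenerating than in Non-regenerating samples, and 1 was lower in Non-regenerating than in Traced samples. Of 8 tested markers of pericytes and smooth muscle, 1 was lower in Regenerating than in Non-regenerating samples at an unadjusted p under 0.05, and 0 differed from Traced samples at that level.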

How the data were processed

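The deposited values are linear signal intensities, 1 for each probe set of the 17 arrays, and per the submitters' processing notes the authors computed them with GCOS. Its version and settings are not given in the sources used here. RNA was amplified in several rounds before labelling, per the labels' protocols. The 57 control probe sets were left out, 16 was added to each intensity (the 25th percentile of all values) and log2 was taken. The 18625 probe sets whose mean log2 signal reached the 40th percentile were fitted with limma 3.58.1 in R 4.3.3 (lmFit, then eBayes with an intensity trend), with Benjamini-Hochberg adjustment over all of them. Regenerating against Non-regenerating carried the animal as a block, paired by the animal names in the titles, and same-animal deviations correlated at 0.345 to 0.709. The other comparisons were fitted on their own 2 groups. Fits were tested on simulated data. The number of arrays limits the precision. Values were tabulated in Python 3.11.15 with numpy 2.4.6, pandas 2.3.3 and matplotlib 3.10.9.

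Genes named are those whose best probe set had an unadjusted p under 0.05 (up to 12 per direction and comparison), a fixed set of receptor, laminin and collagen chains at their brightest probe set, up to 3 genes per pathway list with the smallest p, and second probe sets that differed in direction by more than 0.5. Lists cover 5 pathways (adhesion sites, other ligands, collagen synthesis, proteases, other receptors) and 8 cell types (endothelial cells, pericytes, fibroblasts, Schwann cells, astrocytes, microglia, oligodendrocytes, neurons). Members and lists were chosen with earlier results of these data known. Alternatives changed the scaling, offset, filter, array weights, block and arrays used. Those added after seeing the data compared animals named MM and MOON and split members by brightness.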

Additional observations from a re-analysis of the deposited data

Results flagged for a closer look

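In groups of 7 samples, 3 member values lay far from the rest of their group, among 64 groups at 32 probe sets examined. Chance finds about 1 in 20 such groups, and 3 of 64 is near that rate. Col4a2, a type IV collagen chain, had a signal of 22.1 in Regenerating MOON265, against 81.3 to 117.8 in the other Regenerating samples. Col6a2 at 1371369_at had a signal of 58.9 in Regenerating MM17, against 23.2 to 33.0 in the others. Col5a1 at 1376099_at had a signal of 248.4 in Non-regenerating MM17, against 56.5 to 108.3 in the others. The cause of these values was not tested.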

How the results depend on the processing

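Directions of the member medians depended on the scaling, and none of these medians had a test. The median member difference for Non-regenerating against Traced moved from -0.08 to 0.068 after quantile normalization and to 0.28 with arrays centred on their medians, and for Regenerating against Traced from -0.10 to 0.063 and 0.29, a change of sign in all 4 cases. For Regenerating against Non-regenerating it moved from -0.02 to -0.01 and 0.01. Over all tested probe sets, centring took the median from -0.12 to 0.24 and 0.26 in the comparisons with Traced, and the members with a higher signal from 25 to 42 and from 29 to 42 of 64 (35 and 34 after quantile normalization). The count of members at an adjusted p under 0.05 went from 0 to 6 for Non-regenerating against Traced with array weights. For Regenerating against Traced it went from 0 to 7 with array weights and to 3 with an offset of 64. It ran from 0 to 3 over the fits that left out 1 array, with 3 without Regenerating MM17 (Col6a2, Col23a1 and Itga6). Of all 18625 probe sets, 125 higher and 734 lower passed with an offset of 64. Without Regenerating MM17, 188 higher and 1316 lower passed, so these member counts are no result about the members. The cause of these changes was not tested. With no replicate block, Regenerating against Non-regenerating had 0 members higher and 0 lower at an unadjusted p under 0.05, against 1 and 3 with it, and a median of -0.02 in both. Over all 18 other settings of that comparison these 2 counts ran from 0 to 5 and from 0 to 6. Over 20 settings each they ran from 2 to 9 and 0 to 16 for Non-regenerating, and from 2 to 13 and 1 to 15 for Regenerating against Traced. Over all probe sets tested in each setting, the counts ran from 144 to 1138 and 73 to 938 for Regenerating against Non-regenerating. They ran from 292 to 1446 and 266 to 4478 for Non-regenerating, and from 490 to 3792 and 616 to 6162 for Regenerating against Traced. With 3 Traced arrays, of which MM15 stood apart, small differences against Traced could not be measured.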
